A study of Mus musculus with 28 samples.

Results

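Kcnq3 and Kcnq5 encode subunits of the Kv7 potassium channels that carry the M-current, and their nuclear RNA levels are described here in mouse motor cortex. Both were taken by gene symbol from the count tables, 2 of 41549 genes. They were chosen by their measured CPM in the 4 groups, with the pattern already known, so their own levels and differences are given without a test. In brief, the Kcnq3 level averaged 528 CPM (counts scaled to the library total with TMM factors) in nuclei that carried Cas9 with the g4 vector and 346 to 370 in the other 3 groups, while Kcnq5 averaged between 72.9 and 105 with overlapping values in all 4.

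Each of 7 mice, numbered 17 to 23, received AAV-Cas9-miR-124-empty in the left motor cortex and AAV-Cas9-miR-124-g4 in the right, so vector and hemisphere cannot be told apart. AAV is an adeno-associated virus used to deliver genes, Cas9 is a DNA-cutting nuclease, and the study's title concerns knockdown of microRNAs in the rodent brain. The meaning of g4, the promoter that drives Cas9 and the animals' strain and age are not stated in the labels. Nuclei of fixed tissue were sorted on the HA tag of Cas9, which gave 4 groups of 7 libraries, 28 in all: HA-positive nuclei from the empty and the g4 side, and HA-negative nuclei from each side. All animals and both hemispheres received a Cas9 vector, and there was no uninjected group. HA-negative nuclei came from the same injected hemispheres.

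The M-current is a slow potassium current that switches on near the firing threshold, does not inactivate and restrains repetitive firing. In cortical neurons it is carried by tetramers of Kv7 subunits, and Kcnq5 subunits can join those of Kcnq3 or form channels alone. The channels need the membrane lipid PIP2 to open, and receptors coupled to the G protein Gq, such as muscarinic acetylcholine receptors, close them by activating phospholipase C. Ankyrin-G holds channels with Kcnq3 subunits at the axon initial segment, where action potentials start.

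Kcnq3 (ENSMUSG00000056258) is annotated on chromosome 15 from 65986387 to 66286642 on the minus strand of GRCm38, with 3 transcripts and 14708 bases of merged exons. Kcnq5 (ENSMUSG00000028033) lies on chromosome 1 from 21398403 to 21961942 on the minus strand, with 7 transcripts and 7689 exonic bases. The antisense gene Gm27153 lies within Kcnq3 and had 0 counts. Of 4 annotated genes that overlap Kcnq5, Gm36949 and Gm38243 had 0 counts and Gm26580 and Gm7658 were not in the tables used here. The sources used here do not state the strand setting or the treatment of intronic reads in counting.

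Because the vectors are named for miR-124, a microRNA of neurons, the longest annotated 3′ untranslated region of each gene was searched on the transcript strand for GTGCCTT, the 7mer-m8 match to its seed, and TGCCTTA, the 7mer-A1 match. The 2 motifs overlap in 6 bases, and a stretch holding both counts as 1 8mer. The windows below hold every match in Kcnq3 and Kcnq5, with the match in capitals, written 5′ to 3′ on the transcript strand from GENCODE M21 transcripts (GRCm38).
Kcnq3 7mer-m8, chr15:65986661-65986689, minus: atagaattctgGTGCCTTgctccctggat
Kcnq5 7mer-m8, chr1:21398862-21398890, minus: tgggttcttagGTGCCTTtctgacctgct
Kcnq5 7mer-A1, chr1:21398624-21398652, minus: tttatttttttTGCCTTAaatgacatggt

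All 3 matches lay in the distal part of their untranslated region. The Kcnq3 match began at base 8493 of 8784, and those of Kcnq5 at bases 3284 and 3522 of 3760. Neither gene had an 8mer. At least 1 match was present in 4134 of 21037 untranslated regions searched (19.65%). Among regions within 1.5 times the length of that of Kcnq3 the share was 66.3%, and for the length of Kcnq5 it was 42.17%, so a match in regions this long is common. A match is a description of the letters and not evidence of binding.

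Libraries held 248612 to 902944 counts and 8687 to 13668 detected genes. The empty HA-positive libraries of animals 17, 21 and 22 and the g4 HA-positive library of animal 18 had fewer than 10000 detected genes. The g4 HA-positive library of animal 19 stood apart. Its 10 oligodendrocyte markers summed to 1491 CPM against 224 in the next library of its group, and it held 614 CPM of Xist, a transcript with 0 counts in the remaining 15 libraries from animals 17 to 20, together with 45.7 CPM summed over 4 Y-linked genes. Y-linked genes summed to 102 to 189 CPM in those 15 libraries. In the 12 libraries of animals 21 to 23, Xist stood at 459 to 1329 CPM. The origin of the mixed signal in the g4 HA-positive library of animal 19 was not tested. Mature miR-124 was not measured. The hairpin Mir124a-2 was counted 57 times in g4 HA-positive nuclei, from 0 to 30 times per library, and 0 times in the other 3 groups. The hairpins Mir124a-1 and Mir124a-3 had 0 counts in all 28 libraries. Unscaled counts of the host transcript Mir124-2hg were 203 and 491 in empty and g4 HA-positive nuclei, and 154 and 168 in HA-negative nuclei. Those of the host transcript Mir124a-1hg were 246, 400, 322 and 360 in the same order. Markers of striatal projection neurons summed to 353 to 2436 CPM in HA-negative libraries, although the label is motor cortex.

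Kcnq3, whose subunit takes part in M-channels as a partner of other Kv7 subunits, had 6041 counts over the 28 libraries, between 87 and 454 in each. In g4 HA-positive nuclei of animals 17 to 23, in that order, Kcnq3 stood at 555, 494, 472, 522, 507, 616 and 531 CPM. In empty HA-positive nuclei of the same animals it stood at 304, 383, 348, 346, 287, 360 and 467 CPM. All 7 g4 libraries lay above all 7 empty libraries, and each animal was higher on its g4 side.

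In HA-negative nuclei the Kcnq3 levels of animals 17 to 23 were 364, 308, 283, 288, 416, 408 and 355 CPM with the empty vector. With g4 they were 379, 311, 339, 375, 360, 381 and 443 CPM. These 2 groups overlapped over most of their ranges. Fewer nuclei of a cell type and less RNA per nucleus cannot be told apart in such pooled sorts.

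**Figure D1:**
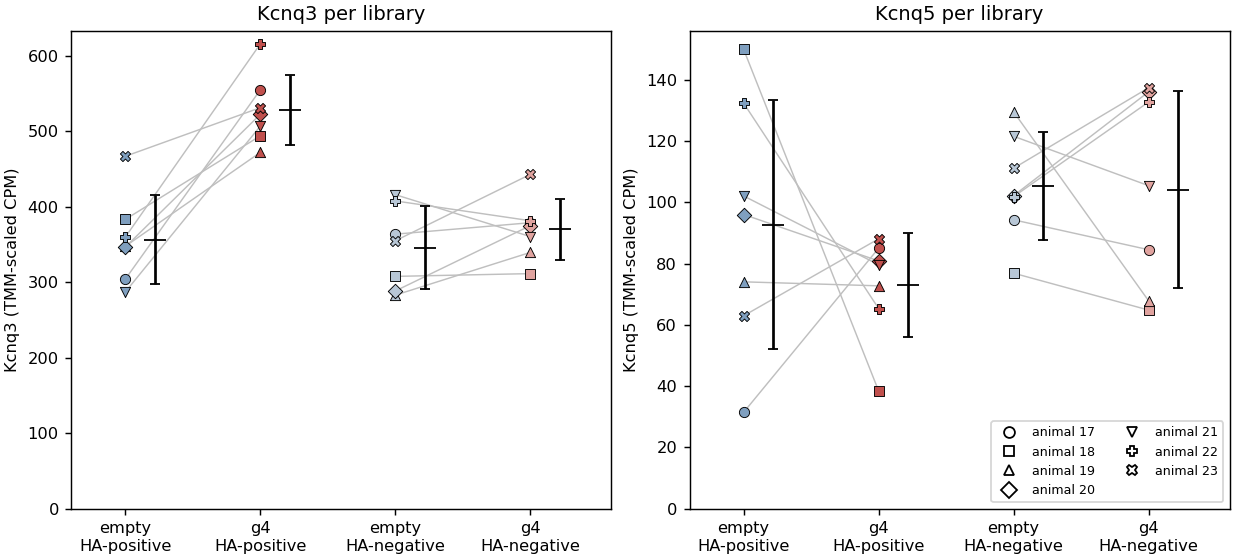
Kcnq3 (left) and Kcnq5 (right) in TMM-scaled CPM for each of 28 libraries in 4 groups. Each symbol is an animal, grey lines join the vectors within an animal, and bars give mean ± SD (n = 7). The 7 g4 HA-positive Kcnq3 values lie between 472 and 616 CPM, above all other libraries, and the Kcnq5 groups overlap.

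The Kcnq3 group means were highest in g4 HA-positive nuclei with 528 ± 46.9 CPM (SD, n = 7). Below them came g4 HA-negative with 370 ± 40.8, empty HA-positive with 356 ± 58.6 and, lowest, empty HA-negative with 346 ± 54.5. The last 3 did not differ beyond their spread. The lowest g4 HA-positive library, that of animal 19 with 472 CPM, was above the highest of the other 21 libraries, the empty HA-positive one of animal 23 with 467 CPM. Counting error alone spans that gap, since the 95% Poisson intervals of these libraries were 430 to 517 and 389 to 556 CPM. Such a complete separation of g4 HA-positive libraries from all others in the upward direction occurred for 1 of 7197 genes (0.0139%), and that gene was Kcnq3. Since the gene was chosen for its pattern, nothing is read from this count. Between g4 and empty HA-positive nuclei alone, 5 of 5011 genes (0.0998%) separated upward.

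On the log2 scale the Kcnq3 difference between g4 and empty HA-positive nuclei was 0.56 ± 0.13 (edgeR estimate ± SE), a ratio of the group means of 1.48. Within animals the difference was positive in 7 of 7 and ranged from 0.185 in animal 23 to 0.86 in animal 17. This estimate ranked 313 from the top among 5011 genes tested. Without the 4 HA-positive libraries under 10000 detected genes it was 0.48, and without the g4 library of animal 19 it was 0.59.

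In HA-negative nuclei the Kcnq3 difference between the vectors was 0.09 ± 0.11 (log2, edgeR estimate ± SE), with 5 of 7 animals higher on the g4 side. It was 0.05 without animal 20 and 0.15 without animal 21. The difference between the 2 vector effects was 0.47 ± 0.17, with 6 of 7 animals in that direction and a value of -0.13 in animal 23. HA-positive and HA-negative nuclei had like Kcnq3 levels with the empty vector, at a difference of 0.04 ± 0.14 that was positive in 4 of 7 animals. With g4 the HA-positive nuclei were higher by 0.51 ± 0.11, in 7 of 7 animals and by 0.26 to 0.69. The g4 fractions did not overlap either, which was so in the upward direction for 67 of 6264 genes (1.07%). These comparisons share libraries, the g4 HA-positive ones in particular, and are not independent of each other.

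Kcnq5, whose subunit can form M-type channels alone or with that of Kcnq3, was counted less deeply, with 1458 counts in all and 9 to 105 in a library. In empty HA-positive nuclei of animals 17 to 23 its level was 31.4, 150, 74.1, 96.1, 102, 132 and 63.0 CPM. In g4 HA-positive nuclei it was 85.1, 38.4, 72.8, 80.9, 79.7, 65.3 and 88.1 CPM. The empty group was the more spread of these and its range enclosed all 7 g4 values. The lowest value of each group belonged to a library with fewer than 10000 detected genes, animal 17 with 9 counts and animal 18 with 14. Other libraries of that kind, the empty ones of animals 21 and 22, were at 102 and 132 CPM.

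In HA-negative nuclei Kcnq5 stood at 94.3, 76.9, 130, 102, 122, 102 and 111 CPM with the empty vector in animals 17 to 23. With g4 it stood at 84.6, 64.8, 67.9, 136, 105, 133 and 137 CPM. The g4 values of animals 17, 18 and 19 lay below those of animals 20 to 23, and the empty values lay across that range.

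The order of the Kcnq5 group means was empty HA-negative with 105 ± 17.5 CPM (SD, n = 7), g4 HA-negative with 104 ± 32.2, empty HA-positive with 92.7 ± 40.7 and g4 HA-positive with 72.9 ± 17.0. No neighbours in that order differed beyond their spread. Counting alone would give an SD of 14.9 CPM in the empty HA-positive group, against the 40.7 seen, and 11.8 in the g4 HA-positive group against 17.0. For Kcnq3 the corresponding counting values were 30.7 and 32.4 CPM, below the 58.6 and 46.9 observed.

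The Kcnq5 difference between g4 and empty HA-positive nuclei was -0.37 ± 0.27 (log2, edgeR estimate ± SE), with 2 animals higher and 5 lower. Animal 17 was at 1.34 and animal 18 at -1.87, and without animal 18 the estimate was -0.12, without animal 22 it was -0.23. In HA-negative nuclei the difference was -0.01 ± 0.18, and the difference of the vector effects was -0.36 ± 0.33. Leaving out an animal moved the latter to between -0.56 (without animal 17) and -0.13 (without animal 18), and to -0.16 without animal 22 and -0.55 without animal 19. Between the fractions, HA-positive minus HA-negative, it was -0.16 ± 0.25 for the empty vector and -0.51 ± 0.21 for g4, the latter lower in 5 of 7 animals. Animals 17 and 19 were at 0.01 and 0.10 in that last comparison. The value for the empty vector was -0.05 without animal 17, -0.06 without animal 19, -0.08 without animal 23, -0.28 without animal 22, -0.38 without animal 18 and -0.25 with animal as a block.

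**Figure D2:**
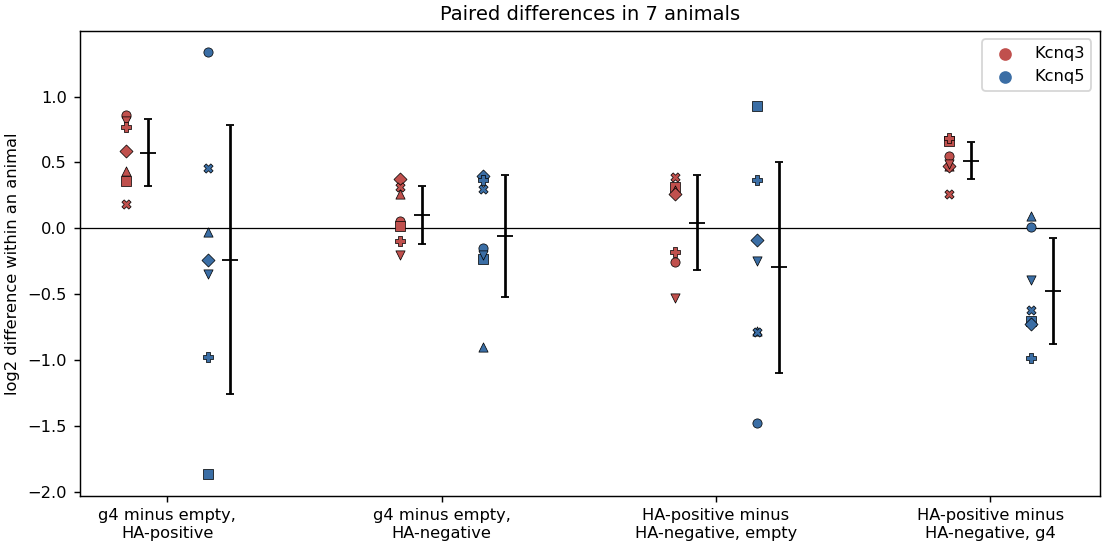
Log2 differences within each of 7 animals for Kcnq3 and Kcnq5 in 4 comparisons, with the mean ± SD as bars and 1 symbol per animal as in the plot of levels. Kcnq3 differences lie above 0 in all 7 animals in the first and last comparison, from 0.185 to 0.86 and from 0.26 to 0.69, while those of Kcnq5 lie on both sides of 0 in each comparison.

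Against empty HA-positive nuclei, the g4 mean was thus higher for Kcnq3 and lower, within its spread, for Kcnq5. Their levels over the 28 libraries had a Pearson correlation of -0.157 on the log2 scale. The ratio of Kcnq3 to Kcnq5 counts within a library, which needs no scaling between libraries, had a median of 6.49 in g4 HA-positive nuclei (range 6.03 to 12.9) and 3.61 in empty HA-positive nuclei (2.55 to 9.67). It was 3.42 in both HA-negative groups, with ranges of 2.18 to 4.0 and 2.75 to 5.0. The g4 HA-positive ratio was above that of the g4 HA-negative library in 7 of 7 animals and above that of the empty HA-positive library in 5 of 7. The exceptions were animals 17 and 23, whose empty libraries had only 9 and 17 Kcnq5 counts. The highest g4 HA-positive ratio, that of animal 18, rested on 14 Kcnq5 counts.

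Per kilobase of merged exons, a scale on which genes can be compared, the g4 HA-positive level was 35.9 ± 3.19 CPM for Kcnq3 and 9.48 ± 2.21 for Kcnq5 (SD, n = 7). In empty HA-positive nuclei these levels were 24.2 ± 3.99 and 12.1 ± 5.30 CPM per kilobase. In HA-negative nuclei Kcnq3 stood at 23.5 ± 3.71 with the empty vector and 25.1 ± 2.78 with g4, and Kcnq5 at 13.7 ± 2.28 and 13.5 ± 4.18 CPM per kilobase. Kcnq3 thus had the higher mean on this scale in all 4 groups. Counting of intronic reads would change these values, and the gene spans differ.

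**Figure D3:**
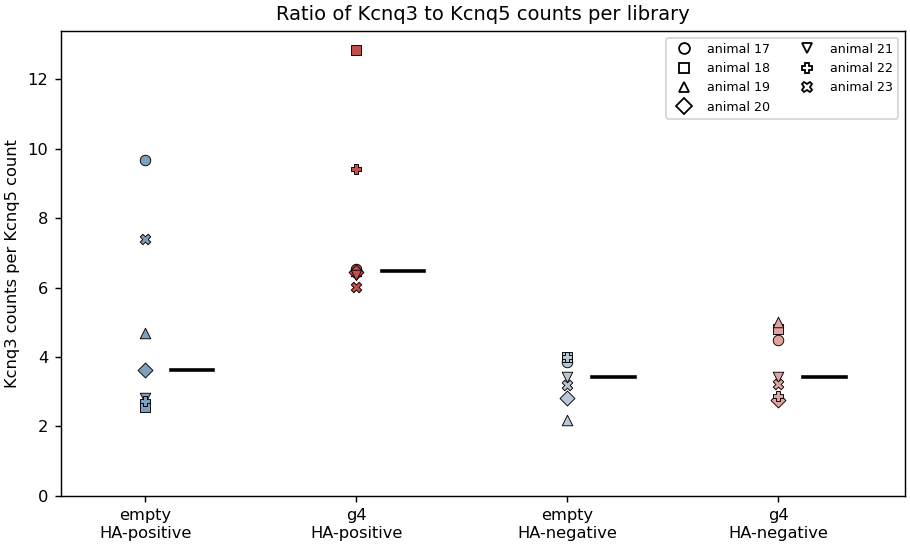
Kcnq3 counts per Kcnq5 count in each of 28 libraries, by vector and HA fraction, with 1 symbol per animal and a bar at each group's median. The g4 HA-positive libraries lie between 6.03 and 12.9, above all 14 HA-negative libraries, and the empty HA-positive libraries between 2.55 and 9.67.

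Some other genes of the family were not detected. Kcnq1, a channel of heart and epithelia, and the 5 accessory Kcne genes examined (Kcne1, Kcne2, Kcne3, Kcne4 and Kcne1l) had 0 counts in all 28 libraries. A count of 0 over these 14988406 counts allows up to 3 counts, or 0.200 CPM.

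Summed levels of markers of other cells are given beside these values. In HA-positive nuclei the 14 inhibitory neuron markers summed to 3376 to 4683 CPM in empty and 1953 to 3977 CPM in g4 libraries. The 14 excitatory markers summed to 961 to 1706 and 1427 to 1960 CPM, and the 9 astrocyte markers to 651 to 1496 and 945 to 2675. The median log2 difference of tested markers, g4 minus empty, was -0.34 for 14 inhibitory, 0.33 for 10 excitatory and 0.63 for 6 astrocyte markers, and 1.84 for 2 oligodendrocyte markers. The 10 oligodendrocyte markers summed to 52.0 to 126 CPM in empty libraries. In g4 libraries they summed to 106 to 224 CPM apart from animal 19, which was at 1491. Over these lists edgeR called 0 markers at an adjusted p under 0.05, where 3 of 5011 genes were called. An unadjusted p under 0.05 (edgeR) was seen for 4 of 14 inhibitory and 2 of 10 excitatory markers. It was also seen for 2 of 6 astrocyte and 1 of 2 oligodendrocyte markers, and for 336 of all 5011 genes. DESeq2 called 2 of 14 inhibitory markers and 11 of all 5011 genes. HA-positive microglia markers summed to 6.99 to 44.5 CPM with the empty vector, where Cx3cr1, P2ry12, C1qa and C1qc were at 0, and to 2.74 to 342 CPM with g4, the highest being animal 19. Endothelial and mural markers stayed at or below 55.6 CPM in all libraries. Between HA fractions 10 of 13 tested inhibitory markers were called higher in HA-positive nuclei for either vector, where 3.45% of all genes were called higher with the empty vector and 3.32% with g4. With the empty vector 7 of 7 oligodendrocyte, 6 of 7 striatal projection neuron and 5 of 5 microglia markers were called lower (3.54% of all genes), and with g4 6 of 8, 6 of 8 and 3 of 5 (3.08%). The median log2 difference of the striatal markers was -2.49 with the empty vector and -2.20 with g4. Excitatory markers were called lower for 3 of 12 with the empty vector and 2 of 13 with g4, at medians of -0.68 and -0.34. For oligodendrocyte precursors 1 of 1 and 2 of 2 were called lower, and for astrocytes 1 of 7 and 0 of 7. The part of these markers in the Kcnq3 and Kcnq5 levels was not tested.

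The rest of the M-current pathway was read from a list of 49 other genes, of which 32 to 35 had enough counts for the fit in each comparison. In g4 against empty HA-positive nuclei 0 of 32 were called by edgeR at an adjusted p under 0.05, where 0.0599% of 5011 genes were called. DESeq2 also called 0 list genes, and 2 had an unadjusted p under 0.05 in the edgeR fit (336 of all genes). The median log2 difference of the list was -0.02, against -0.01 for all genes. The 2 genes, named after their values were seen, were the nodal sodium channel gene Scn8a at -0.43 ± 0.15 (edgeR adjusted p = 0.672) and the adhesion molecule gene Nfasc at 0.48 ± 0.22 (edgeR adjusted p = 0.730).

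Among Gq-coupled receptors, 5 of 9 were tested in that comparison. Chrm1, the main muscarinic receptor of cortical neurons, stood at 84.8 ± 11.8 CPM in empty and 80.5 ± 23.5 CPM in g4 libraries (SD, n = 7). Chrm5 had 0 counts in all libraries. Downstream of the receptors, the phospholipase Plcb1 was at a log2 difference of 0.04 ± 0.17 and the protein kinase C gene Prkcb at -0.06 ± 0.16 (± SE). For PIP2 supply, Pi4ka, which makes the lipid's precursor, was at -0.01 ± 0.16, and Synj1, a phosphatase that removes PIP2, at 0.04 ± 0.13.

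Calmodulin sits on the channel's intracellular tail, and of the genes that encode it Calm2 stood at 681 ± 102 CPM in empty and 812 ± 155 CPM in g4 HA-positive nuclei (SD, n = 7). The log2 difference of Calm2 was 0.25 ± 0.14 (edgeR adjusted p = 0.754). At the axon initial segment, the ankyrin-G gene Ank3 was at -0.03 ± 0.13 and the sodium channel gene Scn2a at 0.16 ± 0.16. Of the turnover genes, the ubiquitin ligase Nedd4 was at -0.17 ± 0.13, and the kinase Sgk1 had too few counts for this fit. Sgk1 had 51 counts in empty and 71 in g4 libraries, or 17.1 ± 14.2 and 15.9 ± 10.2 CPM (SD, n = 7). The transcription factors Sp1 and Rest were likewise too low to be tested here. Sp1 had 39 and 122 counts there, or 13.5 ± 9.56 and 27.3 ± 14.1 CPM. Rest had 15 and 8, or 6.97 ± 12.7 and 1.33 ± 2.28 CPM.

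**Figure D4:**
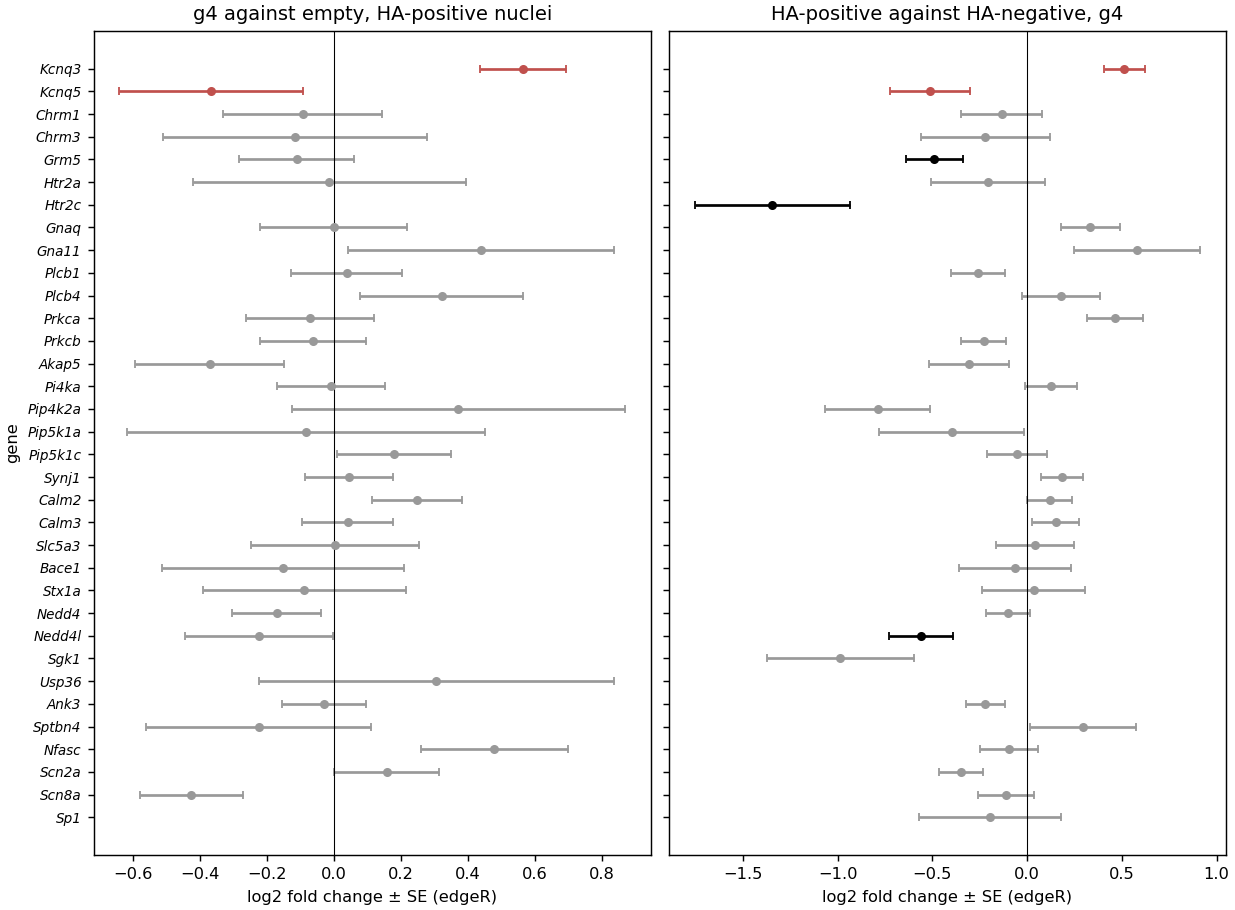
Log2 fold change ± SE (edgeR) of tested M-current genes for g4 against empty in HA-positive nuclei (left) and for the HA-positive against the HA-negative fraction with g4 (right), in the order of the list. Kcnq3 and Kcnq5 are red and carry no test, genes called at an adjusted p under 0.05 are black and the others grey. On the left 0 other genes are called, and on the right Htr2c, Nedd4l and Grm5 are called lower.

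In HA-negative nuclei edgeR called 0 of 35 tested list genes between the vectors, and 0 of 6262 genes in all (0%). DESeq2 called 0 list genes there, and 2 list genes and 238 genes in all had an unadjusted p under 0.05. The median log2 difference was -0.05 for the list and -0.00 for all genes. The difference between the 2 vector effects likewise gave 0 calls by edgeR among 35 list genes and among 7197 genes (0%), with 1 and 357 at an unadjusted p under 0.05 and 0 list genes called by DESeq2.

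Between the HA fractions 2 list genes of 35 were called lower in HA-positive nuclei with the empty vector and 3 of 34 with g4, and 0 were called higher. The background share of genes called was 6.99% (3.45% higher, 3.54% lower) with the empty vector and 6.4% (3.32% higher, 3.08% lower) with g4. The list's share was near that of calls in either direction. All list calls were lower, for which the background shares are smaller, and nothing is read from so few calls. The list median was -0.12 and -0.10, against 0.00 and 0.01 for all genes. The serotonin receptor gene Htr2c stood at 14.4 ± 11.6 CPM in HA-positive and 43.2 ± 17.5 in HA-negative nuclei with the empty vector, and at 13.3 ± 8.82 and 35.9 ± 17.8 with g4 (SD, n = 7). Its log2 difference was -1.64 ± 0.48 (edgeR adjusted p = 0.0316) and -1.35 ± 0.41 (edgeR adjusted p = 0.0407).

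Nedd4l, a ubiquitin ligase that binds Kv7 subunits, stood at 135 ± 49.8 and 215 ± 31.1 CPM with the empty vector and at 116 ± 21.4 and 172 ± 42.5 with g4, in HA-positive and HA-negative nuclei. Its log2 difference was -0.66 ± 0.19 (edgeR adjusted p = 0.0316) and -0.56 ± 0.17 (edgeR adjusted p = 0.0359). Grm5, a metabotropic glutamate receptor gene, passed the threshold with g4, at -0.49 ± 0.15 (edgeR adjusted p = 0.0430), and was at -0.44 ± 0.17 with the empty vector (edgeR adjusted p = 0.141). The difference of these fraction effects equals that of the vector effects, in which edgeR called 0 list genes.

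With animal as a block, Nedd4l was the 1 list gene called for each vector (edgeR adjusted p = 0.0284 and 0.0446), while Htr2c was at 0.0528 and 0.0709 (log2 differences of -1.68 and -1.39) and Grm5 at 0.0837 with g4 (-0.46). Without the HA-positive libraries under 10000 detected genes, Htr2c was at edgeR adjusted p = 0.0578 with the empty vector. Nedd4l stayed called lower there, at -0.88 ± 0.19 (edgeR adjusted p = 0.00128). For g4, Htr2c, Nedd4l and Grm5 were then at edgeR adjusted p = 0.0537, 0.0612 and 0.0647. In that fit Synj1 was called higher with the empty vector, at 0.47 ± 0.13 (edgeR adjusted p = 0.0191). Pip4k2a, a lipid kinase gene of the list, was called lower there with g4, at -0.95 ± 0.27 (edgeR adjusted p = 0.0233), and both are named after their values were seen. Other settings gave further calls, such as Scn2a lower with the empty vector (DESeq2 adjusted p = 0.0403, edgeR without filter 0.0397). Without the g4 library of animal 19, Scn2a was lower and the protein kinase C gene Prkca higher with g4 (edgeR adjusted p = 0.0150 and 0.0391). With the empty vector, the Htr2c call ended without any 1 of animals 17, 19, 20, 21 and 22, and the Nedd4l call without any 1 of animals 17, 18, 19, 20 and 23 (edgeR adjusted p up to 0.178). The log2 differences then ranged from -1.91 to -1.46 for Htr2c and from -0.84 to -0.49 for Nedd4l. With g4, the Htr2c call ended without animal 17, 20, 21, 22 or 23, the Grm5 call without animal 20, 21, 22 or 23, and the Nedd4l call without animal 21, 22 or 23 (edgeR adjusted p up to 0.269). They ranged from -1.72 to -1.03 for Htr2c, from -0.60 to -0.34 for Grm5 and from -0.64 to -0.48 for Nedd4l. By the counts given above, markers of inhibitory, excitatory and striatal projection neurons, oligodendrocytes, their precursors and microglia also changed between these fractions. So did 1 astrocyte marker with the empty vector. The part of these markers in these differences was not tested.

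The genes whose log2 CPM followed Kcnq3 most closely over the 28 libraries, among 5847 others with a mean of at least 20 CPM, were Lrrc58 (Pearson r = 0.771), Vat1 (0.757), the small nucleolar RNA gene Gm23305 (0.738), Usp9x (0.723) and Map2k4 (0.695). The libraries are 4 per animal and share depth and sorting, so r is descriptive. Differences between the groups were left in, so genes picked this way tend to share the group pattern of Kcnq3. Lrrc58 averaged 292 ± 84.5 CPM in g4 HA-positive nuclei and 102 to 121 in the other groups, and Vat1 84.8 ± 43.0 against 11.9 to 26.3 (SD, n = 7). Usp9x, a deubiquitinase gene, averaged 719 ± 54.8 CPM against 503 to 609, and Map2k4, a stress kinase gene, 185 ± 43.6 against 129 to 136.

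For Kcnq5 the closest genes were Hlf (Pearson r = 0.789), Unc79 (0.757), Rlf (0.740), Lims1 (0.736) and Dlg1 (0.725), over the same libraries. Hlf, a circadian-output transcription factor gene, averaged 126 ± 70.3, 88.5 ± 25.9, 141 ± 34.7 and 121 ± 27.4 CPM in empty and g4 HA-positive and then empty and g4 HA-negative nuclei. Unc79, part of a sodium leak channel complex, averaged 93.3 ± 43.1, 82.8 ± 26.8, 108 ± 32.5 and 109 ± 24.1 CPM. Like Kcnq5, both had their widest spread in the empty HA-positive group and their lowest mean in the g4 HA-positive group. Dlg1 did not, with 98.7 ± 25.8 CPM in empty and 109 ± 29.3 CPM in g4 HA-positive nuclei, the former its lowest mean. All were picked by their correlation with Kcnq5 over these libraries, so nothing is read from a shared pattern.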

How the data were processed

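The authors deposited raw counts per gene, 1 table for HA-positive and 1 for HA-negative nuclei. The genome build is GRCm38, per the submitters' processing notes, and the sources used here do not state the aligner, counting program or strand setting. Libraries were made from picogram amounts of nuclear RNA, per the labels' protocols. Empty cells were read as 0, and 1 entry that named no gene and held 0 counts was left out. Samples were tied to columns through their descriptions; for 3 animals the column number was 1 higher than that in the title, and the title's number is used.

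Kcnq3, Kcnq5 and all gene lists were chosen with earlier results of these data known. Counts were fitted with edgeR 4.0.16 (R 4.3.3; glmQLFit and glmQLFTest, TMM factors, filterByExpr, robust, two-sided), on the groups compared and over all genes that passed the filter, with calls made at an adjusted p under 0.05 (Benjamini-Hochberg over all genes tested). The fit was run on simulated counts drawn independently for each library. That run does not cover animal effects, or libraries with few detected genes or a mixed signal. In g4 against empty HA-positive nuclei 5011 genes were tested, and both Kcnq3 and Kcnq5 passed the filter in every comparison. Per-library log2 values used a prior count of 2. Intervals are exact Poisson (95%) and cover counting error only. Alternatives were DESeq2 1.42.0, other size factors, no filter, animal as a block, libraries left out and each animal left out.

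Named were Kcnq3 and Kcnq5, the Kv7 family and accessory genes, list genes called in a comparison, up to 2 uncalled genes per sublist with the highest mean CPM, and the 5 genes most correlated with each of Kcnq3 and Kcnq5. Some genes that this rule takes are not reported here, and the counts over the list include them. Positions and 3′ untranslated regions come from GENCODE M21, to which 41474 of 41549 genes were matched by identifier. The same number marks the same animal in all 4 groups, per the titles, so the within-animal differences paired libraries by that number. The main edgeR fits held no animal term and treated libraries as independent, and animal as a block was an alternative. Animal 19 is a limit on the pairing, since its g4 HA-positive library held Xist and its other libraries did not. The within-animal counts include that library. Deviations of paired libraries from their group means correlated at -0.0499 to 0.0477 between vectors in HA-positive nuclei, 0.00232 to 0.132 in HA-negative nuclei, -0.00578 to 0.0523 between fractions with the empty vector and -0.1 to 0.132 with g4. No 2 libraries of a group held identical counts, and the lowest chi-square per degree of freedom between replicates was 2.67.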

Additional observations from a re-analysis of the deposited data

How the results depend on the processing

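Across 13 alternatives the Kcnq3 difference between g4 and empty HA-positive nuclei kept its sign (0.48 to 0.64, log2), as did that between HA fractions with g4 (0.48 to 0.56) and that between the vector effects (0.38 to 0.59). The Kcnq5 difference in HA-positive nuclei kept its sign over 13 alternatives (-0.55 to -0.12). The Kcnq5 difference in HA-negative nuclei changed sign in 5 of 11 alternatives (-0.09 to 0.12), and the Kcnq3 difference between fractions with the empty vector in 3 of 12 (-0.03 to 0.14). Dropping the filter moved the median of all genes to 0.14 in HA-positive nuclei, to 0.12 for the vector effects and to -0.18 between fractions with the empty vector.

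Genes called between vectors in HA-positive nuclei numbered 3, against 11 with DESeq2, 28 with no filter, 1 with animal as a replicate block, 0 without libraries under 10000 detected genes, 5 without the g4 library of animal 19, and 1 to 4 leaving out an animal (1 without animal 18). In HA-negative nuclei DESeq2 called 1 gene against 0, and with no filter 3 genes were called for the difference of vector effects against 0. Between fractions with the empty vector 387 genes were called, 661 with no filter (233 higher, 428 lower, against 191 and 196) and 251 to 372 leaving out an animal (251 without animal 19). With g4 it was 401, and 218 to 423 leaving out an animal (218, 223 and 241 without animals 20, 21 and 22).

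List genes called between fractions numbered 2 with the empty vector and 1 under the replicate block, and 0 to 3 leaving out an animal. With g4 they numbered 3, and 1 under the block, 1 without libraries under 10000 detected genes, 5 without the g4 library of animal 19, and 0 to 4 leaving out an animal. The block changed no other call count of the list. The cause of these shifts was not tested. Kcnq5 had 9 to 105 counts per library.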
